A study of Mus musculus with 24 samples.

Results

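The collagen genes of the mouse pancreas were examined in healthy tissue and during a mild acute pancreatitis, in animals with 1 or 2 intact copies of the nuclear receptor gene Nr5a2. A gene was taken as a collagen chain where its name, ignoring case, was COL, a number, A and a number. This rule found 43 of the 36806 genes in the expression table. By textbook class, 11 encode fibrillar chains, 6 encode chains of type IV collagen and 26 encode chains of other types. Of the 43 genes, 21 read 1 FPKM or more in 3 or more of 24 libraries and were tested (7 fibrillar, 3 type IV and 11 other), and 22 did not. FPKM gives the sequenced fragments of a gene relative to its transcript length and to the library. All animals were of C57BL background. HET mice carried Nr5a2 +/-, and WT mice carried Nr5a2 +/+. Each genotype received saline or 7 hourly intraperitoneal injections of caerulein at 50 ug/kg, a cholecystokinin analog that overstimulates the enzyme-secreting acinar cells. Their pancreata were taken 8, 24 or 48 h from the start of the injections, and each of the 8 groups had 3 animals. The labels state neither age nor sex, nor the interval between saline and killing. Polyadenylated RNA of the whole pancreas was sequenced, so the cell type that made a transcript was not recorded.

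Collagens are triple helices of alpha chains. Fibrillar types I, III and V build the fibres of the interstitium, and type IV forms the sheet-like network of basement membranes under acini, ducts and vessels. Other types form beaded filaments (type VI), decorate fibrils or link them to their surroundings (types XII, XIV and XVI), anchor epithelium (type VII) or border basement membranes (types XV and XVIII). In the pancreas, stellate cells and fibroblasts are the known source of the fibrillar chains, and type I and type III collagen accumulate transiently while an inflamed pancreas repairs itself.

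Summed FPKM over all genes ran from 217205 to 1400108 per library, and the sequencing depth is unknown. Nr5a2 read 8.01 to 9.09 FPKM in HET and 9.26 to 12.6 FPKM in WT after saline. Averaged over the 4 conditions it was lower in HET by limma (log2 fold change -0.29, SE 0.09, adjusted p = 0.0368). The 14 acinar markers summed to 96724.8 to 178865 FPKM in HET saline libraries and 114326 to 179401 FPKM in WT saline libraries, with Amy2b listed at 0 throughout. At 48 h the sum was 1043.5 to 30129 FPKM in HET and 41946.4 to 106767 FPKM in WT. Groups listed at 0 that the tests took as missing count as 0 in these sums and in summed FPKM over all genes. Between genotypes 7 of the 14 markers could be tested after saline and 11 at 48 h, so the sums at these times rest on different genes. Saline and 24 h libraries were made with an earlier library guide and 10 PCR cycles, and 8 h and 48 h libraries with a v2 guide and 8 cycles. WT saline replicate 3 is named under neither guide in the labels. Apart from that library, contrasts of 24 h with saline, of 48 h with 8 h and of HET with WT at 1 time stay within 1 guide, whereas in contrasts of 8 h or 48 h with saline the guide and the time cannot be told apart.

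Sequence before the transcription start of 2 abundant fibrillar chains, and around the starts of the main type IV pair, was read from RefSeq. Its build is GRCm38.p6, whereas the expression table was made on mm9. Windows from 250 bases before the start to just after it were found for 35 of the 43 collagen genes, 38 windows in all. The 250 bases before the start of Col1a2 (chr6:4505368-4505617, plus strand) and of Col3a1 (chr1:45311288-45311537, plus strand) are shown because these fibrillar chains rose between 8 h and 48 h in both genotypes. A stretch of 30 bases around the starts of Col4a1 and Col4a2 (chr8:11312798-11312827, plus strand) is shown because this pair passed the threshold in no contrast of the fit on FPKM as deposited. Capitals mark the TATA box motif TATAAA, the CCAAT box motif or the GC box motif GGGCGG on either strand.
Col1a2: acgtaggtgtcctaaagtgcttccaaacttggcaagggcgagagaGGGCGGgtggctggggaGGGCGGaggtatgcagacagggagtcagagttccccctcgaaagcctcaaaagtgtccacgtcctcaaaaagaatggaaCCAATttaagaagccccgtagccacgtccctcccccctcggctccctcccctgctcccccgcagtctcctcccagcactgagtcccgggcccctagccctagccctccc
Col3a1: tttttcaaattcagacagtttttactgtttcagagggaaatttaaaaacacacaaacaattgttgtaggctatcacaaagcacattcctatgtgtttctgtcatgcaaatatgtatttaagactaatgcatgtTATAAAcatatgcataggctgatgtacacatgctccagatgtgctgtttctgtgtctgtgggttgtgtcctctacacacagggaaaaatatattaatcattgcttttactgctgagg
Col4a1 and Col4a2 shared stretch: cctcggcagtgcgcGGGCGGcgtctccaag

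The annotated starts of Col4a1 and Col4a2 lie 21 bases apart on opposite strands, and their windows share 78 bases. The Col1a2 window had a GC content of 61.0%, and the Col3a1 window 37.67% and not 1 CpG. Windows of Col4a1 and Col4a2 had 74.0% and 73.67% GC. TATAAA stood in 2 of 8 fibrillar windows, 0 of 5 type IV windows and 3 of 25 other windows, against 13.62% of the 32851 windows of all genes. CCAAT stood in 3 fibrillar, 3 type IV and 7 other windows (37.41% of all windows). GGGCGG stood in 6 fibrillar, 4 type IV and 13 other windows (35.66% of all windows). The 1 GGGCGG match of Col4a1 is also 1 of the 3 matches of Col4a2, so the type IV count holds this site more than once. Each motif was searched on both strands and counted on its own, overlaps with another motif included, and a match describes the sequence only.

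Collagen transcripts were scarce in the healthy pancreas. All 43 chains made up 0.0148 to 0.0450% of summed FPKM in HET and 0.0164 to 0.0224% in WT after saline, and 0.268 to 0.603% in HET and 0.0574 to 0.187% in WT at 48 h. In HET libraries the 43 chains summed to 206.74 to 339.92 FPKM (saline), 159.62 to 184.35 (8 h), 211.88 to 367.79 (24 h) and 748.81 to 1308.8 (48 h). In WT libraries they summed to 154.49 to 194.13 FPKM (saline), 129.35 to 155.27 (8 h), 308.63 to 553.1 (24 h) and 395.04 to 739.79 (48 h). All 3 HET libraries at 48 h stood above every WT library at 48 h, if narrowly so (748.81 against 739.79 FPKM). At 24 h the order was looser, with 2 HET libraries above the lowest WT library. Chain by chain, the HET and WT libraries did not overlap for 6 of 21 tested chains after saline (17.4% of all genes), 2 at 8 h (14.9%), 4 at 24 h (24.8%) and 9 at 48 h (34.2%), so at 8 h and 24 h the share of chains lay below that of all genes.

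Fibrillar chains took the larger part of collagen FPKM at 24 and 48 h. Fibrillar chains made up 49.1 to 58.1% of collagen FPKM in HET saline libraries and 40.8 to 46.2% in WT saline libraries. At 8 h the fibrillar share was 36.3 to 42.0% in HET and 37.2 to 42.5% in WT, and at 24 h it was 63.7 to 67.8% in HET and 63.2 to 69.9% in WT. At 48 h it was 72.0 to 78.6% in HET and 61.1 to 71.9% in WT. As a ratio, fibrillar over type IV FPKM was 3.91 to 4.35 in HET saline libraries and 2.31 to 2.69 in WT saline libraries. The same ratio was 11.1 to 18.8 in HET and 4.78 to 11.4 in WT at 48 h. After saline every HET library was above every WT library on both measures, at 8 h the genotypes overlapped, and at 24 h the ratio of every HET library (5.34 to 6.53) lay below that of every WT library (6.95 to 8.62). These shares and ratios compare chains within a library, are given as descriptions and carry no test.

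**Figure D1:**
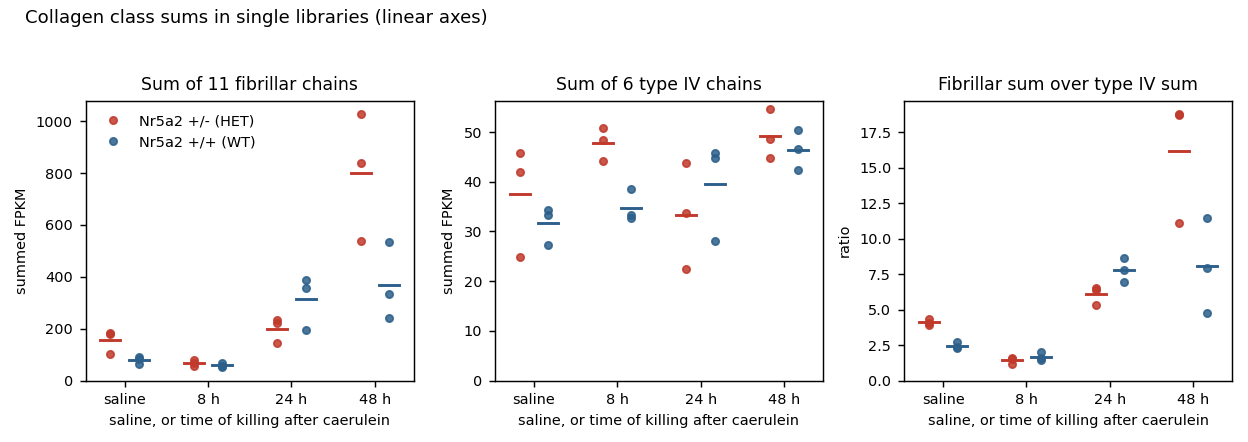
Summed FPKM of the 11 fibrillar chains (left), of the 6 type IV chains (middle) and their ratio (right), on linear axes from 0, for HET (red) and WT (blue) libraries after saline and 8, 24 and 48 h after the first caerulein injection. Points are single libraries and bars are means of 3, with fibrillar sums from 51.2 to 1029 FPKM and type IV sums from 22.4 to 54.6 FPKM over the 24 libraries.

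Among fibrillar chains, Col3a1, the single chain of type III collagen, was the most abundant collagen transcript in all 8 groups. In HET mice it read 45.2, 88.4 and 88.4 FPKM after saline, 28.9, 31.6 and 41.9 at 8 h, 68.5, 95.7 and 103 at 24 h, and 221, 351 and 388 at 48 h. In WT mice it read 27.3, 34.2 and 40.4 FPKM after saline, 27.2, 32.0 and 21.5 at 8 h, 192, 183 and 88.2 at 24 h, and 76.2, 219 and 141 at 48 h. The HET values were lowest at 8 h and highest at 48 h, with no overlap between those times. The WT values had already climbed clear of saline at 24 h, and WT 24 h and 48 h overlapped. Col3a1 rose in WT between saline and 24 h by a log2 fold change of 2.09 (SE 0.36, adjusted p = 0.000168), and in HET the estimate was 0.31 (SE 0.36, adjusted p = 0.521).

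Col1a1, the alpha 1 chain of type I collagen, read 20.6, 40.9 and 29.9 FPKM in HET after saline, 8.4, 10.6 and 11.6 at 8 h, 29.5, 51.9 and 49.7 at 24 h, and 129, 217 and 296 at 48 h. In WT it read 12.4, 17.4 and 17.4 FPKM after saline, 7.8, 11.5 and 9.21 at 8 h, 74.8, 63.9 and 38.9 at 24 h, and 50.0, 133 and 64.4 at 48 h. Between 8 h and 48 h the mean thus grew 20.98 times in HET and 8.68 times in WT. At 48 h the HET and WT values overlapped, since the lowest HET library (129 FPKM) was under the highest WT library (133 FPKM). The log2 fold changes between 8 h and 48 h were 4.19 in HET (SE 0.35, adjusted p = 1.01e-08) and 2.88 in WT (SE 0.35, adjusted p = 1.49e-06).

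Col1a2, the partner chain of type I, read 22.0, 39.5 and 37.6 FPKM in HET after saline, 11.6, 15.2 and 13.7 at 8 h, 27.7, 41.5 and 49.7 at 24 h, and 120, 179 and 231 at 48 h. The WT values were 13.7, 19.8 and 19.4 FPKM after saline, 12.9, 12.6 and 12.2 at 8 h, 85.2, 72.6 and 45.1 at 24 h, and 52.8, 119 and 73.5 at 48 h. Every HET library at 48 h was above every WT library at 48 h, by 1 FPKM at the closest pair (120 against 119). The chain was 14.1 times as high in its highest group (HET 48 h) as in its lowest (WT 8 h).

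The minor fibrillar chains Col5a2 and Col5a1, which encode type V collagen that nucleates type I fibrils, had their lowest mean at 8 h and their highest at 48 h in both genotypes. In HET, Col5a2 read 7.83, 6.23 and 14.0 FPKM after saline, 4.76, 4.78 and 4.93 at 8 h, 10.5, 18.5 and 18.8 at 24 h, and 38.3, 51.7 and 61.0 at 48 h. In WT it read 3.74, 4.64 and 5.82 FPKM after saline, 3.67, 4.71 and 4.84 at 8 h, 20.4, 22.1 and 13.4 at 24 h, and 37.5, 32.6 and 34.2 at 48 h. At 48 h the Col5a2 values of HET all lay above those of WT, but the gap between 38.3 and 37.5 FPKM was small. Col5a1 read 3.49, 5.14 and 5.03 FPKM in HET after saline, 0.991, 2.22 and 2.33 at 8 h, 4.76, 9.24 and 8.89 at 24 h, and 23.5, 32.1 and 40.6 at 48 h. Its WT values were 3.54, 2.73 and 3.46 FPKM after saline, 2.44, 2.33 and 2.15 at 8 h, 10.1, 11.6 and 6.67 at 24 h, and 18.4, 20.4 and 14.8 at 48 h. Each HET library at 48 h was above each WT library at 48 h. The remaining tested fibrillar chains were lower: group means ran from 1.31 to 6.99 FPKM for Col5a3, the third type V chain, and from 0.344 to 1.14 FPKM for Col27a1, a chain best known from cartilage.

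**Figure D2:**
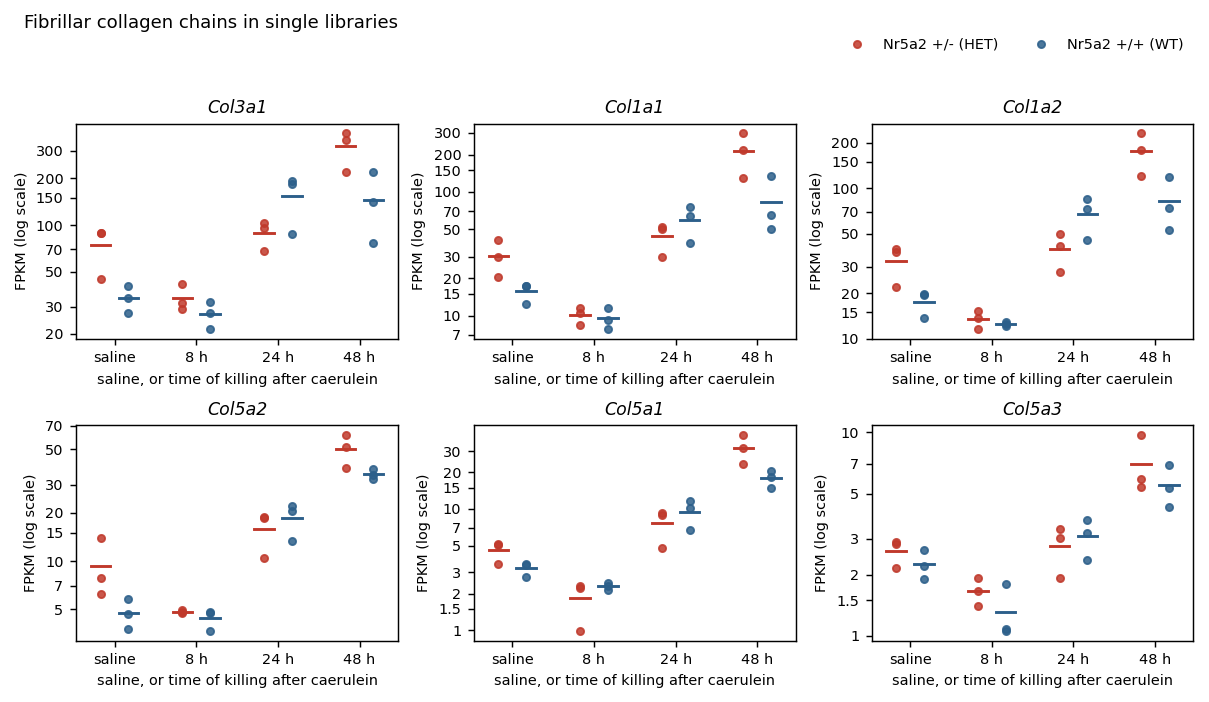
FPKM (log scale) of 6 fibrillar chains in each HET (red) and WT (blue) library after saline and 8, 24 and 48 h after the first caerulein injection, with points for single libraries and bars for the means of 3. At 48 h the HET libraries lay above the WT libraries for Col3a1, Col1a2, Col5a2 and Col5a1, and the genotypes overlapped for Col1a1 (129 against 133 FPKM at the closest) and Col5a3, where 34.2% of all genes did not overlap.

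The main type IV chains varied less between groups than the fibrillar chains. Col4a1, which pairs with Col4a2 in the network found in nearly all basement membranes, read 14.4, 22.1 and 26.6 FPKM in HET after saline, 30.4, 27.7 and 29.8 at 8 h, 12.6, 19.7 and 23.2 at 24 h, and 28.6, 25.1 and 30.9 at 48 h. WT libraries read 15.7, 20.0 and 19.7 FPKM after saline, 22.8, 20.8 and 16.9 at 8 h, 26.9, 25.6 and 17.5 at 24 h, and 28.1, 27.2 and 24.0 at 48 h. The genotypes overlapped after saline, at 24 h and at 48 h, whereas at 8 h all HET values lay above all WT values, as for Col4a2 but no other tested chain (14.9% of all genes did not overlap then). Col4a1 was second to Col3a1 among all collagen chains after saline in WT and at 8 h in both genotypes, and it was not among the 8 highest chains in HET at 48 h.

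Col4a2 read 9.79, 17.1 and 17.6 FPKM in HET after saline, 19.9, 15.4 and 18.0 at 8 h, 8.35, 12.8 and 19.2 at 24 h, and 17.9, 17.5 and 21.7 at 48 h. WT libraries read 10.3, 12.8 and 12.8 FPKM after saline, 14.2, 11.9 and 15 at 8 h, 15.9, 18.4 and 9.85 at 24 h, and 19.6, 16.9 and 15.6 at 48 h. HET and WT overlapped after saline, at 24 h and at 48 h, and at 8 h the HET values lay above the WT values (15.4 against 15 FPKM at the closest). Group means spanned 1.59-fold for Col4a1 and 1.59-fold for Col4a2, compared with 3.31-fold to 22.5-fold among fibrillar chains.

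Neither Col4a1 nor Col4a2 passed an adjusted p of 0.05 in any of the 16 contrasts of the fit on FPKM as deposited. With libraries scaled without digestive enzyme and Reg genes, both were called higher in WT at 24 h over saline. Under that scaling both were also called higher at 48 h over saline and over 8 h, in HET and in WT. With median-of-ratios scaling 2 of 3 type IV chains were called higher in WT at 48 h over 8 h. For Col4a1 the 95% interval of the log2 fold change between 8 h and 48 h was -0.48 to 0.37 in HET and -0.04 to 0.80 in WT. Col4a5, an X-linked chain of a more restricted network, read 1.64 to 1.73 FPKM in HET and 1.86 to 2.21 FPKM in WT at 48 h, against 0.400 to 0.831 FPKM in HET and 0.340 to 1.00 FPKM in WT at 8 h. It rose between 8 h and 48 h in both genotypes (log2 fold change 0.78 in HET and 0.92 in WT, SE 0.20 each, adjusted p = 0.00262 and 0.000686 by limma). If types VII, XV and XVIII are counted with type IV as basement membrane collagens, calls over all contrasts number 14 in place of 4, since Col7a1 and Col15a1 did change.

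Type VI collagen is built from 1 chain each of Col6a1, Col6a2 and 1 further chain, most often Col6a3. Col6a1 read 13.6, 27.9 and 17.8 FPKM in HET after saline, 11.2, 10.3 and 13.5 at 8 h, 8.86, 10.8 and 14.5 at 24 h, and 29.7, 34.3 and 39.3 at 48 h. In WT it read 10.9, 14.1 and 13.9 FPKM after saline, 9.17, 11.4 and 11 at 8 h, 25.0, 26.6 and 16.4 at 24 h, and 19.3, 32.6 and 27.9 at 48 h. At 24 h the HET and WT values did not overlap, with HET low and WT high.

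Col6a2 read 13.2, 21.4 and 17.9 FPKM in HET after saline, 9.55, 8.88 and 11.4 at 8 h, 7.49, 9.95 and 12.8 at 24 h, and 30, 33.7 and 34.3 at 48 h. WT values of Col6a2 were 11.8, 13.1 and 13.3 FPKM after saline, 8.35, 11.5 and 10.3 at 8 h, 21.5, 25.5 and 14.0 at 24 h, and 19.2, 31.1 and 26.2 at 48 h. Again all HET values at 24 h were below all WT values at 24 h. Col6a3 read 14.2, 11.1 and 11.6 FPKM in HET after saline, 4.94, 5.62 and 6.86 at 8 h, 8.82, 17.2 and 17.7 at 24 h, and 34.7, 39.0 and 58.4 at 48 h. Its WT values were 9.30, 8.22 and 10.4 FPKM after saline, 7.51, 8.29 and 4.22 at 8 h, 29.5, 30.6 and 18.1 at 24 h, and 11.9, 27.0 and 19.3 at 48 h. For Col6a3 the HET libraries were wholly below WT at 24 h and wholly above WT at 48 h, times at which 24.8% and 34.2% of all genes did not overlap.

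**Figure D3:**
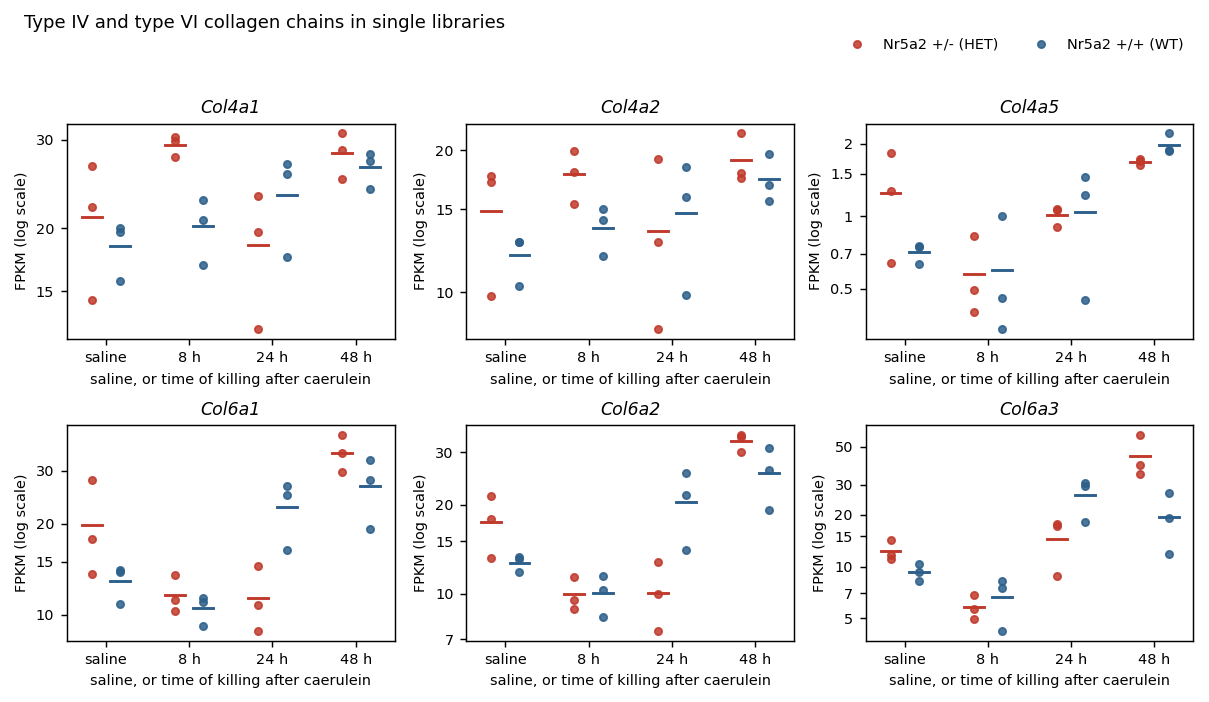
FPKM (log scale, a different range for each chain) of 3 type IV chains (top) and 3 type VI chains (bottom) in each HET (red) and WT (blue) library after saline and 8, 24 and 48 h after the first caerulein injection, with points for single libraries and bars for the means of 3. Group means of Col4a1 and Col4a2 span 1.59-fold, while Col6a1 and Col6a2 at 24 h read 7.49 to 14.5 FPKM in HET and 14.0 to 26.6 FPKM in WT.

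Col15a1, a chain at the outer face of basement membranes, read 19.1, 22.7 and 12.5 FPKM in HET after saline, 5.80, 9.66 and 7.77 at 8 h, 8.12, 13.3 and 22.6 at 24 h, and 23.7, 28.7 and 43.1 at 48 h. In WT it read 15.3, 18.2 and 14.3 FPKM after saline, 6.01, 4.03 and 4.59 at 8 h, 20.3, 26.1 and 13.6 at 24 h, and 15.2, 27.3 and 13.9 at 48 h. Its values at 8 h were below those after saline in every library of both genotypes. Col14a1, a fibril-associated chain, read 5.85, 5.07 and 5.19 FPKM in HET after saline, 2.20, 2.70 and 3.35 at 8 h, 2.67, 4.30 and 4.41 at 24 h, and 12.1, 17.3 and 12.1 at 48 h. Its WT values were 3.39, 4.19 and 5.77 FPKM after saline, 2.49, 2.61 and 2.26 at 8 h, 8.25, 7.98 and 6.81 at 24 h, and 5.84, 13.0 and 12.9 at 48 h. At 24 h HET and WT did not overlap for Col14a1, the last of the 4 chains of which this held (24.8% of all genes).

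Col7a1, the chain of anchoring fibrils under epithelium, ran against the others. In HET it read 4.11, 3.08 and 5.76 FPKM after saline, 7.96, 6.83 and 8.49 at 8 h, 3.02, 4.55 and 3.38 at 24 h, and 2.84, 0.955 and 1.02 at 48 h. WT mice read 4.14, 7.76 and 6.50 FPKM after saline, 14.4, 10.8 and 6.13 at 8 h, 3.05, 2.40 and 4.18 at 24 h, and 4.34, 3.65 and 4.08 at 48 h. Its mean was highest at 8 h in both genotypes, and at 48 h all HET values were below all WT values. Of the lower chains, Col8a1, a short-chain network collagen, went to 6.38, 6.72 and 10.4 FPKM in HET and 4.98, 4.43 and 3.16 FPKM in WT at 48 h, against 0.144 to 0.338 FPKM in HET and 0.195 to 0.285 FPKM in WT after saline. Col12a1, a fibril-associated chain of tissues under load, reached 7.80, 7.51 and 7.10 FPKM in HET and 11, 3.85 and 5.6 FPKM in WT at 48 h, against 0.268 to 0.510 FPKM in HET and 0.079 to 0.253 FPKM in WT after saline. Between their lowest and highest group means, Col12a1 spanned 40.6-fold and Col8a1 32.15-fold, the widest ranges of the 21 chains. Group means of the remaining tested chains ran from 1.78 to 8.73 FPKM for Col16a1, from 3.13 to 6.79 FPKM for Col18a1 and from 0.127 to 1.57 FPKM for Col6a5.

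The time courses were tested with limma on log2(FPKM + 1) over all tested genes, with a call at a Benjamini-Hochberg adjusted p under 0.05. Each library is a different animal, and p-values rest on the spread between animals within groups, pooled over all 8 groups. In WT at 24 h against saline, 11 of the 21 chains rose and 1 fell, where 20.5% of all genes rose and 18.7% fell. The risers were Col3a1, Col1a1, Col1a2, Col5a2 and Col5a1 among 7 fibrillar chains (class median log2 fold change 1.76), none of 3 type IV chains (median 0.24; also none at an unadjusted p under 0.05), and Col6a1, Col6a2, Col6a3, Col12a1, Col14a1 and Col8a1 among 11 others (median 0.73). The median over all genes was 0.05, and 47.5% of all genes had an unadjusted p under 0.05. Col7a1 fell (log2 fold change -0.75, SE 0.28, adjusted p = 0.0442), a call that ended without WT 24 h replicate 1 or 2 or WT saline replicate 2 or 3 (adjusted p up to 0.166). This call was also lost with a pseudocount of 0.1, without the filter and with median-of-ratios scaling (adjusted p = 0.0544, 0.0767 and 0.0518). The spread of the compared groups alone lost it too (adjusted p = 0.0616). With libraries scaled without enzyme and Reg genes its estimate was -0.02 (adjusted p = 0.975). The 5 fibrillar calls and those of Col6a3, Col12a1 and Col8a1 held without any 1 library. Calls of Col6a1, Col6a2 and Col14a1 each ended without WT 24 h replicate 1, WT 24 h replicate 2 or WT saline replicate 1. The calls of Col6a2 and Col14a1 also ended without WT saline replicate 2, and that of Col6a2 without WT saline replicate 3. Adjusted p then reached 0.0842 for Col6a1, 0.175 for Col6a2 and 0.111 for Col14a1. Scaled on genes other than digestive enzymes and Reg genes, which moved the median of all genes by 0.62, 19 chains rose and 0 fell, type IV included with 3 of 3 (median 1.08, against 0.67 for all genes).

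In HET at 24 h against saline, 2 of the 21 chains rose and 2 fell, where 23.9% of all genes rose and 19.8% fell. Col8a1 rose (log2 fold change 1.08, SE 0.17, adjusted p = 5.6e-05) in every fit that left out 1 library. Col5a2 also rose (0.74, SE 0.25, adjusted p = 0.024), but not without HET 24 h replicate 2 or 3 or HET saline replicate 1 or 2 (adjusted p up to 0.131). Col6a1 fell by 0.71 (SE 0.24, adjusted p = 0.0219) and Col6a2 fell by 0.74 (SE 0.22, adjusted p = 0.00998) on the log2 scale, and both turned to 0.33 and 0.30 with neither called when libraries were scaled on genes other than digestive enzymes and Reg genes. That scaling moved the median of all genes by 0.77 in this contrast, so relative to the median gene the fibrillar class stood at 0.24 in the main fit and 0.59 under it, and type IV at -0.22 and 0.05. Calls among the chains then numbered 12 rises and no fall, with 7 of 7 fibrillar chains. Col6a1 lost its call without HET 24 h replicate 1 or 2 or HET saline replicate 2 (adjusted p up to 0.143), and Col6a2 without HET 24 h replicate 1 or HET saline replicate 2 (up to 0.0662).

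Between 8 h and 48 h both genotypes gave the same counts. In HET 15 of the 21 chains rose and 1 fell, where 23.4% of all genes rose and 28.6% fell. In WT likewise 15 rose and 1 fell, where 22.5% rose and 27.4% fell. Fibrillar risers were 6 of 7 in each genotype, with class medians of 3.17 in HET and 2.50 in WT, and Col27a1 was the chain not called (-0.02 in HET and -0.04 in WT). Col5a1 rose by 3.54 in HET (SE 0.25, adjusted p = 9.11e-10) and 2.50 in WT (SE 0.25, adjusted p = 9.79e-08). Type IV medians were 0.10 in HET and 0.38 in WT, with Col4a5 the 1 chain called. Of the others, Col8a1, Col12a1, Col6a3, Col6a1, Col6a2, Col14a1, Col15a1 and Col16a1 rose in both genotypes and Col7a1 fell in both (log2 fold change -1.82 in HET, SE 0.28, adjusted p = 2.57e-05, and -1.12 in WT, SE 0.28, adjusted p = 0.0029). All 16 HET calls held without any 1 library. Col16a1 in WT lost its call without WT 48 h replicate 3 or WT 8 h replicate 2 (adjusted p up to 0.0573). With the enzyme-free scaling the median of all genes moved by 0.69 in HET and 0.45 in WT, all 3 type IV chains were called higher in both genotypes, and the fall of Col7a1 in WT was not called.

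Against saline, where the library guide also differs, called chains in HET mostly fell at 8 h and mostly rose at 48 h. In HET at 8 h 12 chains fell and 2 rose (24.5% and 30.7% of all genes). In WT 2 fell and 0 rose (22.8% and 28.2%), both below the shares of all genes. HET falls took in 5 of 7 fibrillar chains, the largest being Col1a1 (log2 fold change -1.45, SE 0.35, adjusted p = 0.00174), and the 2 rises were Col7a1 (0.75) and Col27a1 (0.68). Col7a1 lost its call without HET 8 h replicate 1 or 3 or HET saline replicate 1 or 2 (adjusted p up to 0.138), and Col27a1 without HET 8 h replicate 1 or HET saline replicate 2 (up to 0.0578). Each of the falls of Col3a1, Col5a2, Col4a5, Col16a1 and Col6a1 ended without at least 1 library: Col5a2 without HET saline replicate 3, Col6a1 without HET 8 h replicate 1 or 2 or HET saline replicate 2, Col3a1 without any of these 4, Col4a5 without HET 8 h replicate 1 or 3 or HET saline replicate 2 or 3, and Col16a1 without HET 8 h replicate 1 or 3 or HET saline replicate 1 or 2 (adjusted p up to 0.23). Without HET 8 h replicate 1, or without HET saline replicate 2, 8 chains were called in place of 14, and with the enzyme-free scaling 4 were. In WT the falls were Col15a1 (-1.53, SE 0.33, adjusted p = 0.000599) and Col14a1 (-0.64, SE 0.23, adjusted p = 0.0287), and 4 chains of 21 had an unadjusted p under 0.05 (55.6% of all genes). Col14a1 lost its call without WT 8 h replicate 1 or 3 or WT saline replicate 2 or 3 (adjusted p up to 0.141). At 48 h 13 chains rose and 1 fell in HET (24.2% and 20.0% of all genes), and 13 rose and 0 fell in WT (11.8% and 13.5%). All 7 fibrillar chains rose in HET (class median 2.36) and 6 of 7 in WT (class median 2.09), although Col27a1 in HET lost its call without HET 48 h replicate 3 or HET saline replicate 1 or 2 (adjusted p up to 0.131). Of the other chains, Col6a1 in HET lost its call without HET saline replicate 1 (adjusted p = 0.0685), and Col6a3 in WT without WT 48 h replicate 2 or 3 or WT saline replicate 1 or 2 (up to 0.177). With the enzyme-free scaling, which moved the median of all genes by 0.74 in HET and 0.41 in WT, 18 of the same 21 chains rose and 0 fell in HET and 16 rose and 0 fell in WT. Type IV then had 3 of 3 called higher in both genotypes, in place of 0 in HET and 1 in WT, and the HET fall, that of Col7a1, was not called (-0.33, adjusted p = 0.435).

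**Figure D4:**
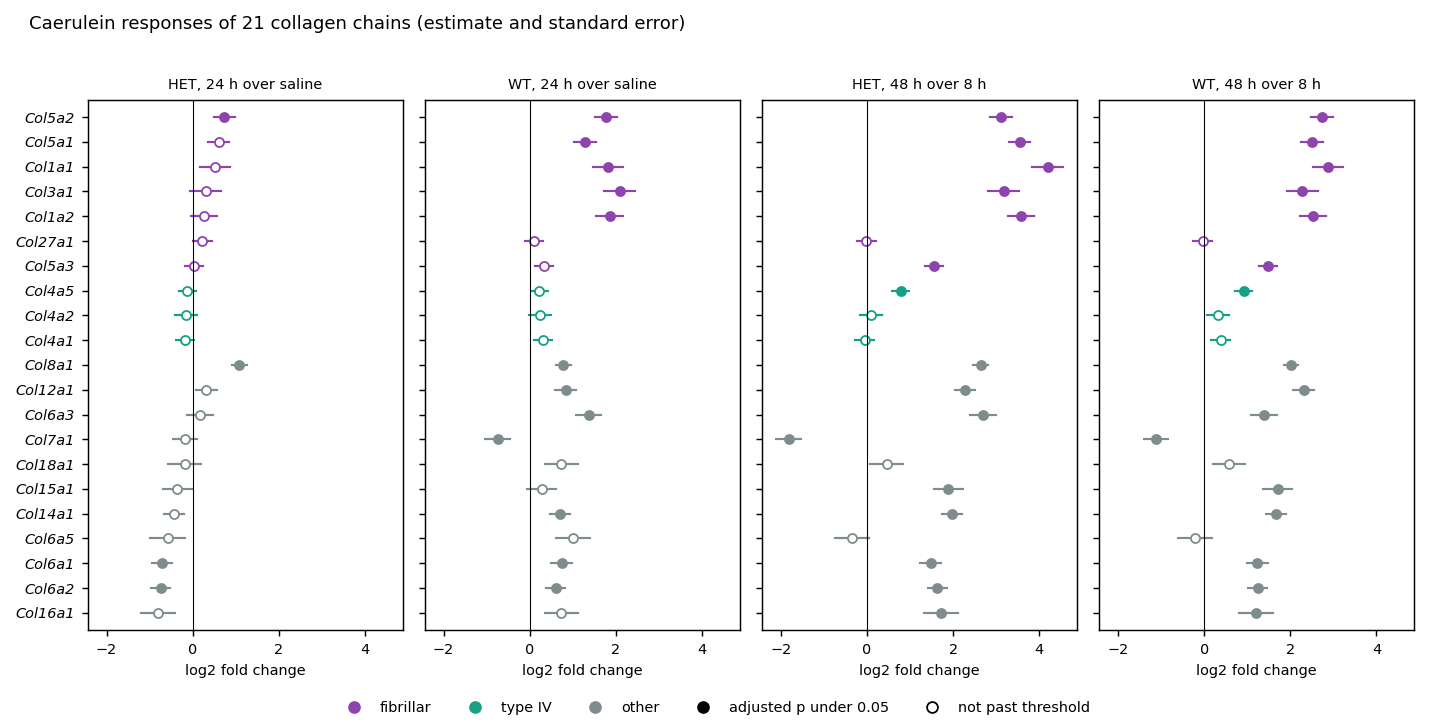
Log2 fold changes (points) with standard errors (lines) of the 21 tested chains for 24 h over saline in HET and WT and for 48 h over 8 h in HET and WT, coloured by class, with filled points for adjusted p under 0.05 by limma. Calls number 4, 12, 16 and 16 from left to right, and the 2 falls of Col6a1 and Col6a2 in HET at 24 h turn to uncalled positive values when libraries are scaled without enzyme and Reg genes.

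No collagen chain passed the genotype test before 24 h. After saline limma called 0 of the 21 chains (2.36% of all genes), although 7 had an unadjusted p under 0.05, all 7 with positive estimates (19.8% of all genes were under that p). Col3a1 had the largest estimate, 1.05 (SE 0.36, adjusted p = 0.112), and Col5a2 the smallest adjusted p, 0.0918 (log2 fold change 0.80, SE 0.25). At 8 h limma again called 0 of 21 (0.218% of all genes), and 1 chain, Col4a1, had an unadjusted p under 0.05 (0.53, SE 0.22, adjusted p = 0.753), as had 5.75% of all genes.

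At 24 h 0 chains were higher in HET than in WT and 3 were lower, where 3.5% of all genes were higher and 3.0% lower. The 3 were Col6a1 (log2 fold change -0.93, SE 0.24, adjusted p = 0.0256), Col6a2 (-0.93, SE 0.22, adjusted p = 0.0154) and Col14a1 (-0.88, SE 0.23, adjusted p = 0.03). None of them passed without HET replicate 1, without WT replicate 1, without WT replicate 2, with the spread of those groups alone, or with libraries scaled without enzyme and Reg genes (adjusted p up to 0.163 without a library, up to 0.106 with that spread and up to 0.241 with that scaling). Without HET replicate 2 only Col6a2 passed. In the type I and type III chains the estimates were negative but not called, at -0.73 for Col3a1 and -0.75 for Col1a2.

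At 48 h 6 chains were higher in HET than in WT and 1 was lower, where 5.85% of all genes were higher and 6.37% lower. Col1a1 was higher by a log2 fold change of 1.41 (SE 0.35, adjusted p = 0.0142), at a mean of 214 ± 83.5 FPKM in HET and 82.5 ± 44.4 FPKM in WT (SD, n = 3 animals each, limma over all genes). Col3a1 was higher by 1.22 (adjusted p = 0.0325), Col1a2 by 1.13 (adjusted p = 0.0212) and Col5a1 by 0.79 (adjusted p = 0.0446). Outside the fibrillar class Col6a3 was higher by 1.18 (adjusted p = 0.0148) and Col8a1 by 0.76 (adjusted p = 0.00825), and Col7a1 was lower by a log2 fold change of -1.02 (adjusted p = 0.0249). The class medians were 0.79 for fibrillar, 0.09 for type IV and 0.38 for other chains, with 0.03 for all genes. These calls rest on few animals: without HET replicate 3 limma called 0 of 21, without WT replicate 1 or without WT replicate 3 it called 1, and without HET replicate 2 it called 2 (adjusted p of the 7 chains up to 0.232). Without HET replicate 1 it called 7 and without WT replicate 2 it called 8. With the spread of those groups alone limma called none, and adjusted p of the 7 chains was 0.0794 to 0.118. With the enzyme-free scaling, which moved the median of all genes by 0.36, 9 of the same 21 chains were higher in HET and 0 lower, the 6 higher chains among them, and Col7a1 was not called (-0.75, adjusted p = 0.131). Col5a1 also lost its call with a pseudocount of 0.1, without the filter and with median-of-ratios scaling, Col3a1 without the filter and Col8a1 with a pseudocount of 0.1.

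Averaged over the 4 conditions, Col8a1 was the 1 chain higher in HET (log2 fold change 0.31, SE 0.09, adjusted p = 0.0172), where 10.2% of all genes were higher, and 0 were lower (8.4%). It held in each of the 24 fits that left out 1 library. The estimate was positive in all 4 conditions, from 0.02 after saline to 0.76 at 48 h.

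**Figure D5:**
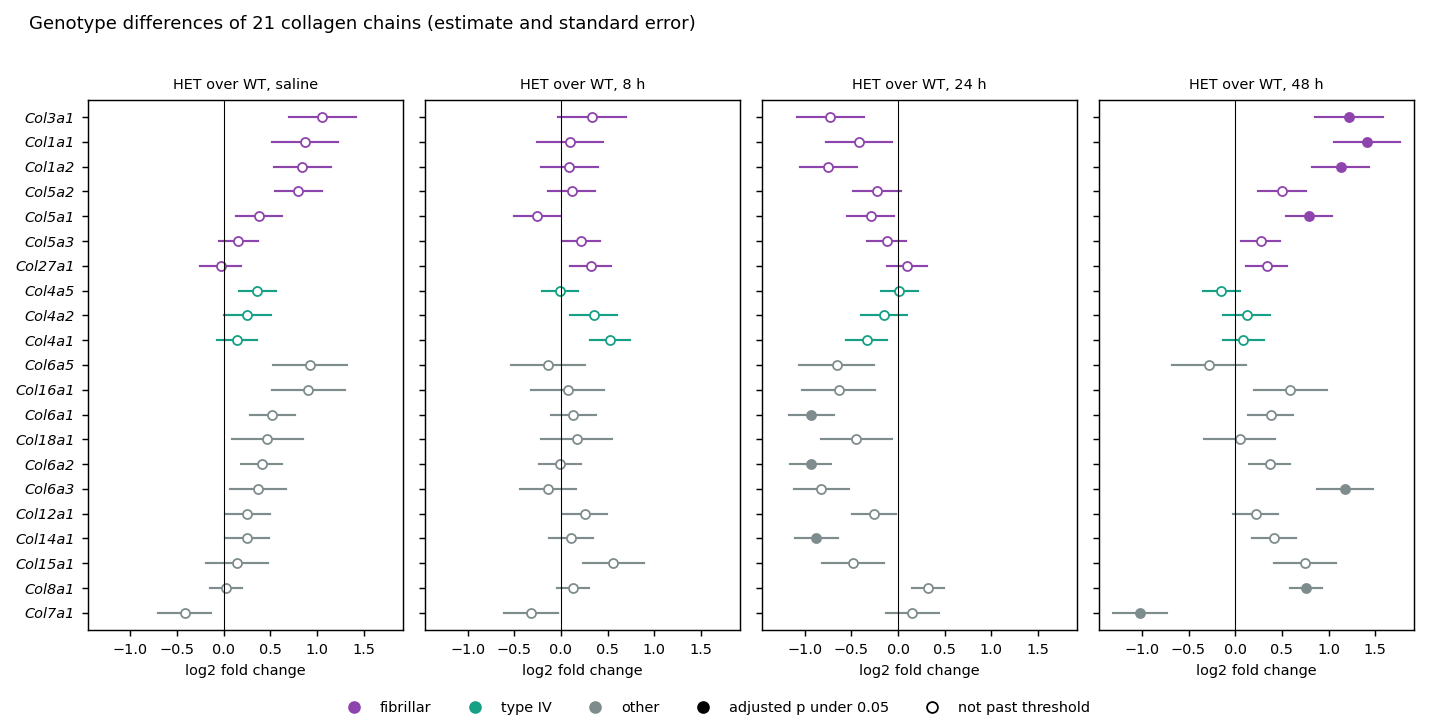
Log2 fold changes of HET over WT (points) with standard errors (lines) of the 21 tested chains after saline and at 8, 24 and 48 h, coloured by class, with filled points for adjusted p under 0.05 by limma. Calls number 0, 0, 3 and 7 from left to right, and the fibrillar median is 0.80 after saline, -0.29 at 24 h and 0.79 at 48 h.

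Whether the response itself differed by genotype was tested with interaction terms. For the change between saline and 24 h, the HET change minus the WT change was -1.45 for Col6a1 (SE 0.34, adjusted p = 0.0299) and -1.34 for Col6a2 (SE 0.31, adjusted p = 0.028). In that fit the chains went opposite ways, Col6a1 by -0.71 in HET and 0.74 in WT and Col6a2 by -0.74 in HET and 0.60 in WT, although both HET values turn positive with the enzyme-free scaling. Thus 2 of 21 chains were called, both lower, where 1.24% of all genes were called lower and 1.07% higher. A further 8 chains had an unadjusted p under 0.05, 10 of 21 in all (17.7% of all genes) and each with a negative estimate, among them Col3a1 (-1.78, adjusted p = 0.0689) and Col1a2 (-1.59, adjusted p = 0.0583). Both calls ended without HET 24 h replicate 1 or 2, HET saline replicate 2, WT 24 h replicate 1 or 2, or WT saline replicate 1 (adjusted p up to 0.0826 and 0.0787), and they ended with the spread of those groups alone (adjusted p = 0.111 for Col6a1 and 0.109 for Col6a2) and under enzyme-free scaling (adjusted p = 0.284 for Col6a1 and 0.297 for Col6a2). For the change between 8 h and 48 h limma called 0 of 21 chains (0.723% of all genes), with 5 at an unadjusted p under 0.05 (12.7% of all genes). For 48 h against saline it called 0 of 21 (1.22% of all genes), with 2 at an unadjusted p under 0.05 (17.1% of all genes). The 48 h genotype difference in type I and type III chains was therefore called, while a genotype difference in their growth since 8 h was not (Col1a1 1.31, SE 0.50, adjusted p = 0.251).

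Ratios between partner chains were steadier than the chains. Over all 24 libraries Col4a1 over Col4a2 lay between 1.13 and 1.8, and Col6a1 over Col6a2 between 0.924 and 1.30. Col1a1 over Col1a2 lay between 0.605 and 1.28. Its values were 0.795 to 1.04 in HET and 0.879 to 0.905 in WT after saline, and 1.075 to 1.28 in HET and 0.876 to 1.12 in WT at 48 h. Col3a1 over Col1a1 was 2.98 to 3.61 in HET and 2.33 to 3.49 in WT at 8 h, and 1.31 to 1.71 in HET and 1.52 to 2.19 in WT at 48 h, so type III led type I by less at 48 h. Col6a3 over Col6a1 was 0.995 to 1.59 in HET and 1.10 to 1.18 in WT at 24 h, and 1.14 to 1.49 in HET and 0.617 to 0.828 in WT at 48 h, with no overlap between the genotypes at 48 h.

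Genes of the pathway were counted in lists, beside the shares of all genes that rose and fell at 24 h over saline (23.9% and 19.8% in HET, 20.5% and 18.7% in WT). Of 18 tested genes for chain modification, folding and export, 9 rose and 3 fell in HET at 24 h over saline, and 8 rose and 3 fell in WT, with the falls near the share of all genes. Serpinh1, the collagen chaperone HSP47, rose in WT at 24 h (log2 fold change 1.66, adjusted p = 2.64e-05), reading 77.5, 58.8 and 51.5 FPKM against 22.3, 16.8 and 18.0 FPKM after saline. Fkbp10, a prolyl isomerase of the same pathway, rose in HET between 8 h and 48 h (2.48, adjusted p = 5.15e-08). P4hb and Ppib, which serve secretory proteins at large besides collagen, fell in both genotypes at 24 h over saline (P4hb -2.96 in HET and -2.43 in WT). The counts for this and the following gene lists come from the fit on FPKM as deposited and were not recomputed with other scalings.

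Of 18 tested genes for collagen processing, cross-linking and fibril-bound proteins, 4 rose and 5 fell in HET at 24 h over saline, near the 23.9% and 19.8% of all genes. In WT 11 rose and 0 fell (20.5% and 18.7% of all genes), and the interaction called 6 lower in HET and 0 higher (1.24% and 1.07% of all genes). Between 8 h and 48 h 10 rose in HET (23.4% of all genes) and 11 in WT (22.5%), with 0 falls in either (28.6% and 27.4%). Lox, the lysyl oxidase that cross-links fibrils, read 31.3, 35.0 and 40.8 FPKM in HET and 34.3, 20.3 and 22.7 FPKM in WT at 48 h, against 4.51, 5.11 and 5.03 FPKM in HET and 4.14, 2.80 and 4.58 FPKM in WT at 8 h. Lum, a proteoglycan that regulates fibril width, read 4.83, 5.95 and 5.57 FPKM in HET and 18.7, 14.2 and 11 FPKM in WT at 24 h, with no overlap, and its interaction was -1.91 (SE 0.42, adjusted p = 0.0227). Sparc and Pcolce had interactions of -1.44 (adjusted p = 0.0227) and -1.51 (adjusted p = 0.0286).

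Among 10 tested genes of collagen breakdown, 3 rose in HET (23.9% of all genes) and 6 in WT (20.5%) at 24 h over saline, and 2 were higher in HET than in WT at 48 h (5.85%). Timp1, an inhibitor of matrix metalloproteinases, was higher in HET at 48 h (1.8, SE 0.40, adjusted p = 0.00679) at 45.3, 80.7 and 128 FPKM in HET and 16.6, 43.7 and 13.7 FPKM in WT. Mrc2, a receptor that takes up collagen, was higher too (0.70, adjusted p = 0.0315). Of 9 tested collagen receptors, 5 rose and 1 fell in HET and 5 rose and 0 fell in WT at 24 h over saline (shares of all genes as above), with Cd44, mainly a hyaluronan receptor, at 3.02 in both. Of 15 tested laminins and other basement membrane partners of type IV, 2 rose and 6 fell in HET (23.9% and 19.8% of all genes), and 2 rose and 0 fell in WT (20.5% and 18.7%), so the rises lay below the share of all genes in both.

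In whole tissue, more cells of a type and more RNA per cell cannot be told apart. The 16 fibroblast and stellate markers summed to 198.2 to 348.9 FPKM in HET and 76.3 to 132.5 FPKM in WT after saline, 569.6 to 648.6 FPKM in HET and 402.3 to 573.0 FPKM in WT at 24 h, and 491.5 to 720.7 FPKM in HET and 366.5 to 507.4 FPKM in WT at 48 h. At 48 h 3 of the 16, Timp1 among them, were higher in HET than in WT and 0 lower (5.85% and 6.37% of all genes). At 24 h 2 were higher and 1 lower (3.5% and 3.0% of all genes). No fibroblast marker is at 0 throughout. The 11 macrophage markers summed to 809.69 to 1400.25 FPKM in HET and 257.74 to 869.98 FPKM in WT at 48 h, with 6 higher in HET and 0 lower (5.85% and 6.37% of all genes). They summed to 213.14 to 465.53 FPKM in HET and 70.05 to 180.53 FPKM in WT after saline. At 24 h the sums were 869.77 to 1329.68 FPKM in HET and 577.46 to 984.24 FPKM in WT. Averaged over the 4 conditions all 11 were higher in HET (10.2% of all genes). At 48 h the acinar markers were lower in HET, 10 of 11 tested (6.37% of all genes), as their sums above show. Smooth muscle markers summed to 92.7 to 150.9 FPKM in HET and 94.8 to 220.4 FPKM in WT at 48 h. Endothelial markers, of cells that border basement membrane, summed to 32.0 to 47.8 FPKM in HET and 53.6 to 59.1 FPKM in WT at 48 h, with 2 of 12 lower in HET (6.37% of all genes). The 8 duct markers summed to 1000.54 to 1100.66 FPKM in HET and 451.1 to 771.5 FPKM in WT at 24 h, and to 395.0 to 830.5 FPKM in HET and 371.9 to 501.4 FPKM in WT at 48 h. At each time 2 of 7 tested were higher in HET and 0 lower (3.5% and 3.0% of all genes at 24 h, 5.85% and 6.37% at 48 h). None of the duct or endothelial markers is at 0 throughout. The part of any of these cells in the collagen differences was not tested.

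After saline the 12 adipocyte markers summed to 329.5 to 812.3 FPKM in HET and 44.65 to 145.0 FPKM in WT, and 55.3 to 185.6 FPKM (HET) and 143.0 to 576.4 FPKM (WT) at 24 h. Their interaction between saline and 24 h was called lower in HET for 5 of 12 and higher for 0 (1.24% and 1.07% of all genes), in the same direction as Col6a1 and Col6a2. None of the 12 is at 0 throughout. Median interactions were also negative for fibroblast (-1.055), mesothelial (-1.244), B cell (-1.451), acinar (-1.281) and smooth muscle markers (-0.818). Those of macrophage (-0.617) and endothelial markers (-0.391) were negative too, and those of islet (1.317), duct (0.582) and Schwann cell markers (0.957) positive. Mesothelial markers summed to 19.1 to 51.9 FPKM in HET and 5.63 to 16.4 FPKM in WT after saline, and 16.1 to 27.1 FPKM in HET and 11.01 to 39.7 FPKM in WT at 24 h. Islet markers summed to 981.65 to 1463.56 FPKM in HET and 2764.38 to 5266.73 FPKM in WT after saline. Their part in the saline and 24 h collagen values was not tested.

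The 22 chains under the filter were Col2a1, Col11a1, Col11a2 and Col24a1 (fibrillar), Col4a3, Col4a4 and Col4a6 (type IV), and Col6a4, Col6a6, Col8a2, Col9a1, Col9a2, Col9a3, Col10a1, Col13a1, Col17a1, Col19a1, Col20a1, Col22a1, Col23a1, Col25a1 and Col28a1. None of them had more than 1.81 FPKM in any library, the value of Col17a1, a hemidesmosome chain, in HET saline replicate 2. The lowest was Col25a1, at most 0.0386 FPKM. Of the chains best known from cartilage, Col2a1 was listed above 0 in 6 of 6 libraries at 48 h and 2 of 18 others, Col11a1 in 6 of 6 and 4 of 18, Col10a1 in 6 of 6 and 4 of 18, and Col9a2 in 5 of 6 and 3 of 18. Col9a3 and Col11a2 were each above 0 in 6 of 6 and 11 of 18, and Col9a1 in 0 of 6 and 1 of 18. Steps between low values gave the relative worth of 1 read, which was 0.125 to 0.192 in HET and 0.291 to 0.478 in WT at 48 h and 0.919 to 1.97 in HET and 1.00 to 1.30 in WT after saline, on a scale where WT saline replicate 1 is 1. The worth of 1 read was 0.356 to 0.442 in HET and 0.346 to 0.524 in WT at 8 h. At 24 h it was 0.452 to 0.497 in HET and 0.57 to 0.966 in WT. Libraries at 48 h thus resolve lower levels than saline libraries. The WT values at 48 h overlap those of both genotypes at 8 h and of HET at 24 h. In those steps Col10a1 came to 92 whole reads over the 6 libraries at 48 h, 0 at 24 h, 5 at 8 h and 0 after saline. The part of depth in these low chains was not tested.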

How the data were processed

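The tools named in the submitters' processing notes are Bowtie, CASAVA 1.8, Cuffnorm and Cufflinks 2.0.2, with build mm9, and neither their roles nor their order are stated. The authors deposited 1 table of FPKM per Ensembl gene, whose unit was taken from Cuffnorm. Per the labels' protocols, RNA integrity was 6.6 to 9.2. Depth is unknown, and no counts were used.

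Values were set to log2(FPKM + 1), so fold changes of low genes are understated. Genes with 1 FPKM or more in 3 or more libraries entered a fit in limma 3.58.1 (R 4.3.3) with 1 mean for each of 8 groups, trend and robust settings, two-sided tests and Benjamini-Hochberg adjustment over all tested genes. The code was tested on simulated data. Groups at 0 where each library of another group had 100 FPKM or more were taken as missing (22 genes, 68 gene and group combinations, no collagen chain). They count as 0 in sums of FPKM. Gene names were matched for 31840 of 36806 IDs, and 12784 genes were at 0 in every library. Tables and plots used Python 3.11.15, pandas 2.3.3, numpy 2.4.6 and matplotlib 3.10.9.

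Replicates were numbered in accession order, which pairs no animals. Pairs of libraries within a group had r = 0.9359 to 0.9699 across genes and shared at most 0.5837% identical values. Values in every library are given for up to 5 fibrillar, 4 type IV and 6 other chains with the highest mean FPKM, and other chains where called or by range. For other genes up to 3 per list and contrast with the smallest adjusted p could be named; Col8a1, Col12a1 were chosen after their values were seen. The members and gene lists were chosen with earlier results of these data known. Alternatives were a pseudocount of 0.1, no filter, zeros kept as values, scaling without enzyme and Reg genes, median-of-ratios scaling, the spread of the compared groups alone, types VII, XV and XVIII counted as basement membrane, and each replicate left out.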

Additional observations from a re-analysis of the deposited data

Results flagged for a closer look

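The response to caerulein between saline and 24 h was called different between the genotypes for Col6a1 (interaction -1.453 on the log2 scale) and Col6a2 (interaction -1.34), both by limma's test of the difference itself. Each call held in only 6 of 12 fits that left out 1 library. Both were lost with the spread of those groups alone (adjusted p = 0.111 and 0.109) and with scaling without enzyme and Reg genes (0.284 and 0.297). Under that scaling the HET changes at 24 h turned positive (0.33 and 0.30). Both chains read 7.49 to 14.5 FPKM in HET and 14.0 to 26.6 FPKM in WT at 24 h, against 13.2 to 27.9 FPKM in HET and 10.9 to 14.1 FPKM in WT after saline. The same interaction was called lower in HET for 5 of 12 adipocyte, 1 of 16 fibroblast and 1 of 7 tested acinar markers (1.24% of all genes). It was called higher for 1 of 2 tested Schwann cell markers (1.07% of all genes). The part of these cells in the result was not tested.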

How the results depend on the processing

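Of 104 calls over all contrasts, 73 held in every fit that left out 1 library and 72 held under every other alternative. All 16 calls of 48 h against 8 h in HET held in every fit that left out 1 library. Scaling without enzyme and Reg genes moved the median of all genes by up to 0.77. It gave 0 called chains for HET against WT at 24 h, 3 for their mean, 4 for HET at 8 h, 12 for HET at 24 h, 1 for WT at 8 h and 19 for WT at 24 h, each against saline, and 0 for the 24 h interaction. It reversed Col6a1 (0.33) and Col6a2 (0.30) in HET at 24 h. When the spread came from the compared groups only, limma called 0 chains between genotypes at 24 h and 0 at 48 h, 2 for HET at 24 h, 4 for WT at 8 h and 0 for the 24 h interaction. Without a filter the genotype mean gave 2 and WT at 8 h gave 1. Counting types VII, XV and XVIII as basement membrane gave 14 calls in place of 4. The cause of these changes was not tested.

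Leaving out 1 library in turn, called chains for HET against WT ranged from 0 to 3 (24 h), 0 to 8 (48 h) and 1 to 4 (mean). Against saline they ranged from 8 to 12 for HET at 8 h, 1 to 5 for HET at 24 h, 13 to 15 for HET at 48 h, 1 to 3 for WT at 8 h, 8 to 14 for WT at 24 h and 12 to 13 for WT at 48 h. For 48 h against 8 h they were 16 in HET and 15 to 16 in WT. The interactions ranged from 0 to 5 at 24 h and 0 to 1 for 48 h against 8 h. No paired analysis was possible because the replicate numbers follow accession order and pair no animals. Depth is unknown, so beyond the relative worth of 1 read no limit of detection in FPKM is given.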
